A study of Mus musculus with 38 samples.

Results

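The genes described here encode the proteins of the cytosolic ribosome, followed in mouse livers after a carcinogen. Members were taken by symbol. A probe belongs if its single gene symbol begins with Rpl or Rps and a digit, or with Rplp and a digit, or is Rpsa or Fau, and the S6 kinases (symbols starting Rps6k) are left out. This gives 122 of the 36607 probes and 75 genes, of which 46 belong to the large and 29 to the small subunit. The symbol rule also takes in Rps19bp1, which encodes a binding partner of Rps19, and Rpl7l1, a relative of Rpl7, neither of which is a ribosomal protein. Rpl13a has 23 probes, 19 genes have 2 or 3 and the remaining 55 have 1.

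RNA of 38 arrays from 20 male mice was compared, in 4 groups of 5. All mice received N-nitrosodiethylamine (DEN), which causes liver tumours, once at 10 µg per g of body weight when 14 days old. Control livers carried the albumin-promoter Cre (Alb-Cre +/-, labelled strain B6129). Knockout livers carried the same Cre with floxed alleles of Met, which encodes the receptor for hepatocyte growth factor (Alb-Cre +/-; Met Fl/Fl, labelled strain 129SV/C57BL6). The albumin promoter is active in hepatocytes, so other liver cells may keep Met, and the labelled strain differs along with the genotype. Livers were taken 3 or 5 months after DEN. The labelled ages of 12 and 20 weeks are shorter than those times, so the interval is not settled. All livers but 2 were hybridised in both dye orientations against 1 reference, RNA pooled from 5 wild-type livers (strain label B6129, male, 12 weeks), for which the labels name no DEN. Nothing in the labels ties same-numbered mice of different groups together.

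Ribosomes are built from ribosomal RNA and a fixed set of proteins that are needed in nearly equal amounts, and the genes for these proteins tend to be regulated together. Their mRNAs begin with a run of pyrimidines, the terminal oligopyrimidine tract, through which mTOR and Larp1 control their translation. In liver their output follows growth and feeding, and it is raised in regenerating and tumour tissue.

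All values are log2 ratios of liver over reference, 1 per mouse, averaged over both dye orientations. A value of 0 is the level of the reference and 1 is 2-fold above it. Cy5 was taken as the numerator of the deposited ratio. This is the likely reading, being the common convention for such ratios, though no label states it, and with Cy3 as numerator each higher below would become lower and each lower higher. After turning to liver over reference, their mean array median was 0.46 with liver in Cy5 and 0.38 with liver in Cy3 in controls of 3 months, and -0.27 and -0.36 in controls of 5 months. In knockouts it was 0.30 and 0.12 at 3 months and 0.14 and -0.04 at 5 months, so the sign of the group mean differed between orientations in knockouts of 5 months alone. In 4 of the 18 mice with both orientations, 2 knockouts of each age, the array medians had opposite signs.

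The start regions of genes that the results turn on are shown first. RefSeq promoter windows (build GRCm38.p6) were matched by Entrez ID for 59 of 73 ribosomal protein genes, as 70 windows of 300 bases. Rpl32, Rplp1, Rpl3 and Rps20 had none. The stretches below run from 35 bases before the annotated transcript start to 25 after it. Capitals mark a C followed by at least 4 pyrimidines and beginning within 10 bases of the start, as in a terminal oligopyrimidine tract. The first 6 genes have such a run.
Rpl35 (chr2:39005107-39005166, minus strand): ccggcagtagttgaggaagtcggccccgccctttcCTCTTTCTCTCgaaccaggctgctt
Rpl27a (chr7:109519160-109519219, plus strand): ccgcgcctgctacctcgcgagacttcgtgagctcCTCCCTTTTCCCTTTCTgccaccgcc
Rps23 (chr13:90923087-90923146, plus strand): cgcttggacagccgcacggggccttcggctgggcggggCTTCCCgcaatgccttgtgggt
Rps6 (chr4:86857343-86857402, minus strand): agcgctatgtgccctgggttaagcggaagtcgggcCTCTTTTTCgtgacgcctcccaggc
Rpl35a (chr16:33056447-33056506, plus strand, 1 of 3 windows): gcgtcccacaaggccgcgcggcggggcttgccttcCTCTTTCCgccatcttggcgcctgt
Rpl22l1 (chr3:28805473-28805532, plus strand): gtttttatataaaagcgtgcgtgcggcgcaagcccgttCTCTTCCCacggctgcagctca
Rpl26 (chr11:68901531-68901590, plus strand): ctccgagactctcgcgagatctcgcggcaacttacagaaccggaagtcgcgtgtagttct
Rpl36al (chr12:69184043-69184102, minus strand): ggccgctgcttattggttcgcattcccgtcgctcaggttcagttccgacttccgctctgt

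The run, searched on the transcribed strand, was found in 37 of the 70 member windows (52.9%) and in 30.7% of all 32851 windows. The letters CCGGAAG, the core of sites bound by GABP and other ETS factors, stood on either strand of 26 member windows (37.1%), against 8.86% of all windows. AAGATGGC, part of the site of YY1, stood on either strand of 8 (11.4%), against 2.75%. The reverse complement of CCGGAAG contains a C followed by 4 pyrimidines, so those patterns can overlap. Rpl26 shows CCGGAAG just after its annotated start and no run there. These are matches of letters, not measured sites.

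Ribosomal protein RNA was mostly above the reference at 3 months and lower at 5 months, with a median age difference of -0.69 in controls and -0.19 in knockouts. The median over the 75 genes (a gene with several probes counts as their mean) was 0.35, 0.34, 0.35, 0.17 and 0.69 in the 5 controls of 3 months. In the knockouts of that age it was 0.47, 0.27, 0.08, 0.16 and 0.04. The ranges overlapped, with control 5 the highest and knockout 5 the lowest.

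At 5 months the median was -0.11, -0.24, -0.14, -0.72 and -0.29 in controls. It was 0.28, 0.05, -0.03, 0.05 and -0.04 in knockouts of that age. All 5 knockouts lay above all 5 controls. Group means were 0.38 ± 0.19 (SD, n = 5) in controls and 0.20 ± 0.17 in knockouts at 3 months, then -0.30 ± 0.25 and 0.06 ± 0.13 at 5 months. Medians over all probes had group means of -0.05, -0.10, 0.08 and 0.08 in the same order, closer to 0 than the ribosomal protein values in all groups but knockouts of 5 months. Of the 75 genes, 66 averaged above the reference in controls of 3 months and 53 in knockouts, against 23 in controls and 48 in knockouts at 5 months. In whole liver, fewer cells of a type and less RNA per cell cannot be told apart.

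**Figure D1:**
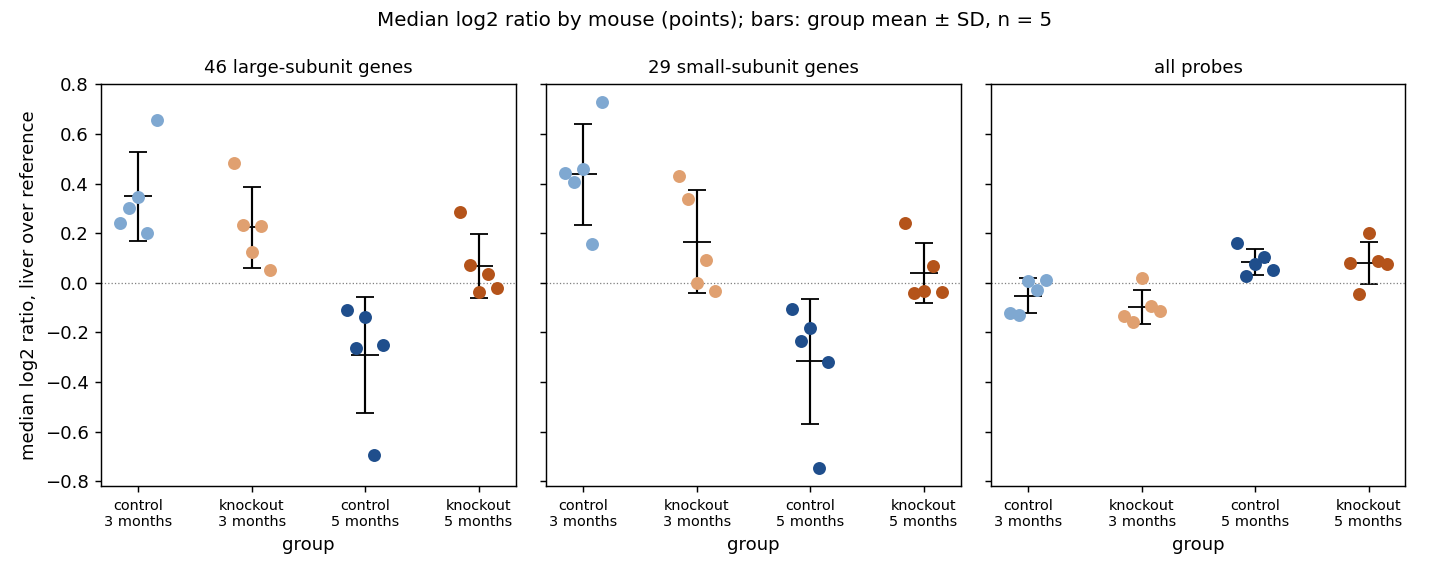
Median log2 ratio of liver over reference in each mouse (points), for large-subunit genes, small-subunit genes and all probes, by group, with the group mean and SD as bars (n = 5). Both subunits show the same order of groups, and at 5 months every knockout lies above every control, while the medians over all probes differ little between genotypes.

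Both subunits showed the same order of groups. Large-subunit genes had group means of 0.35 ± 0.18 in controls and 0.22 ± 0.16 in knockouts at 3 months, and -0.29 ± 0.24 and 0.07 ± 0.13 at 5 months. Small-subunit genes had 0.44 ± 0.20, 0.17 ± 0.21, -0.32 ± 0.25 and 0.04 ± 0.12 in the same order. The large minus the small median within a mouse was 0.03 ± 0.04 in controls and 0.03 ± 0.06 in knockouts at 5 months. At 3 months the within-mouse difference was -0.20, -0.11, -0.11, 0.04 and -0.07 in controls and 0.05, -0.10, 0.13, 0.13 and 0.09 in knockouts. The groups overlapped, and knockouts averaged 0.06 ± 0.10 against -0.09 ± 0.09 in controls. Levels of this difference varied between array series, the runs of consecutive experiment numbers in the labels, while knockouts averaged above controls in both series. The mean was -0.14 (3 controls) and -0.03 (2 knockouts) in one series and -0.01 (2 controls) and 0.12 (3 knockouts) in the other.

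Single livers stood at the ends of the range. Control 4 of 5 months was the lowest of the 20 mice for 57 of the 75 genes (76.0%, against 17.0% of all probes), in the array with liver in Cy5 (median -0.84) as in the one with liver in Cy3 (-0.58). Control 5 of 3 months was the highest for 37 genes (49.3%, against 9.81%). Knockout 1 of 3 months was the highest for 19 (25.3%, against 7.38%). Knockouts 2 and 3 of 5 months have 1 array each, to which a probe-wise dye correction from the remaining mice of both ages was applied. With liver in Cy5, array medians of all probes were -0.65 to -0.34 in knockouts of 3 months and -0.10 to -0.05 at 5 months. The correction moved that median from 0.22 to -0.04 in knockout 2 and from -0.06 to 0.20 in knockout 3. Knockout 3 was the highest mouse for 18.7% of all probes and 6.67% of the genes. Whether the correction suits these 2 mice was not tested. The Met probe, whose place relative to the floxed exon is not given in the sources used here, had -0.39 ± 0.38 in knockouts and -0.81 ± 0.18 in controls at 3 months (SD, n = 5, limma adjusted p = 0.655) and -0.78 ± 0.45 and -0.73 ± 0.30 at 5 months (adjusted p = 0.979), so it does not check the genotype labels.

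**Figure D2:**
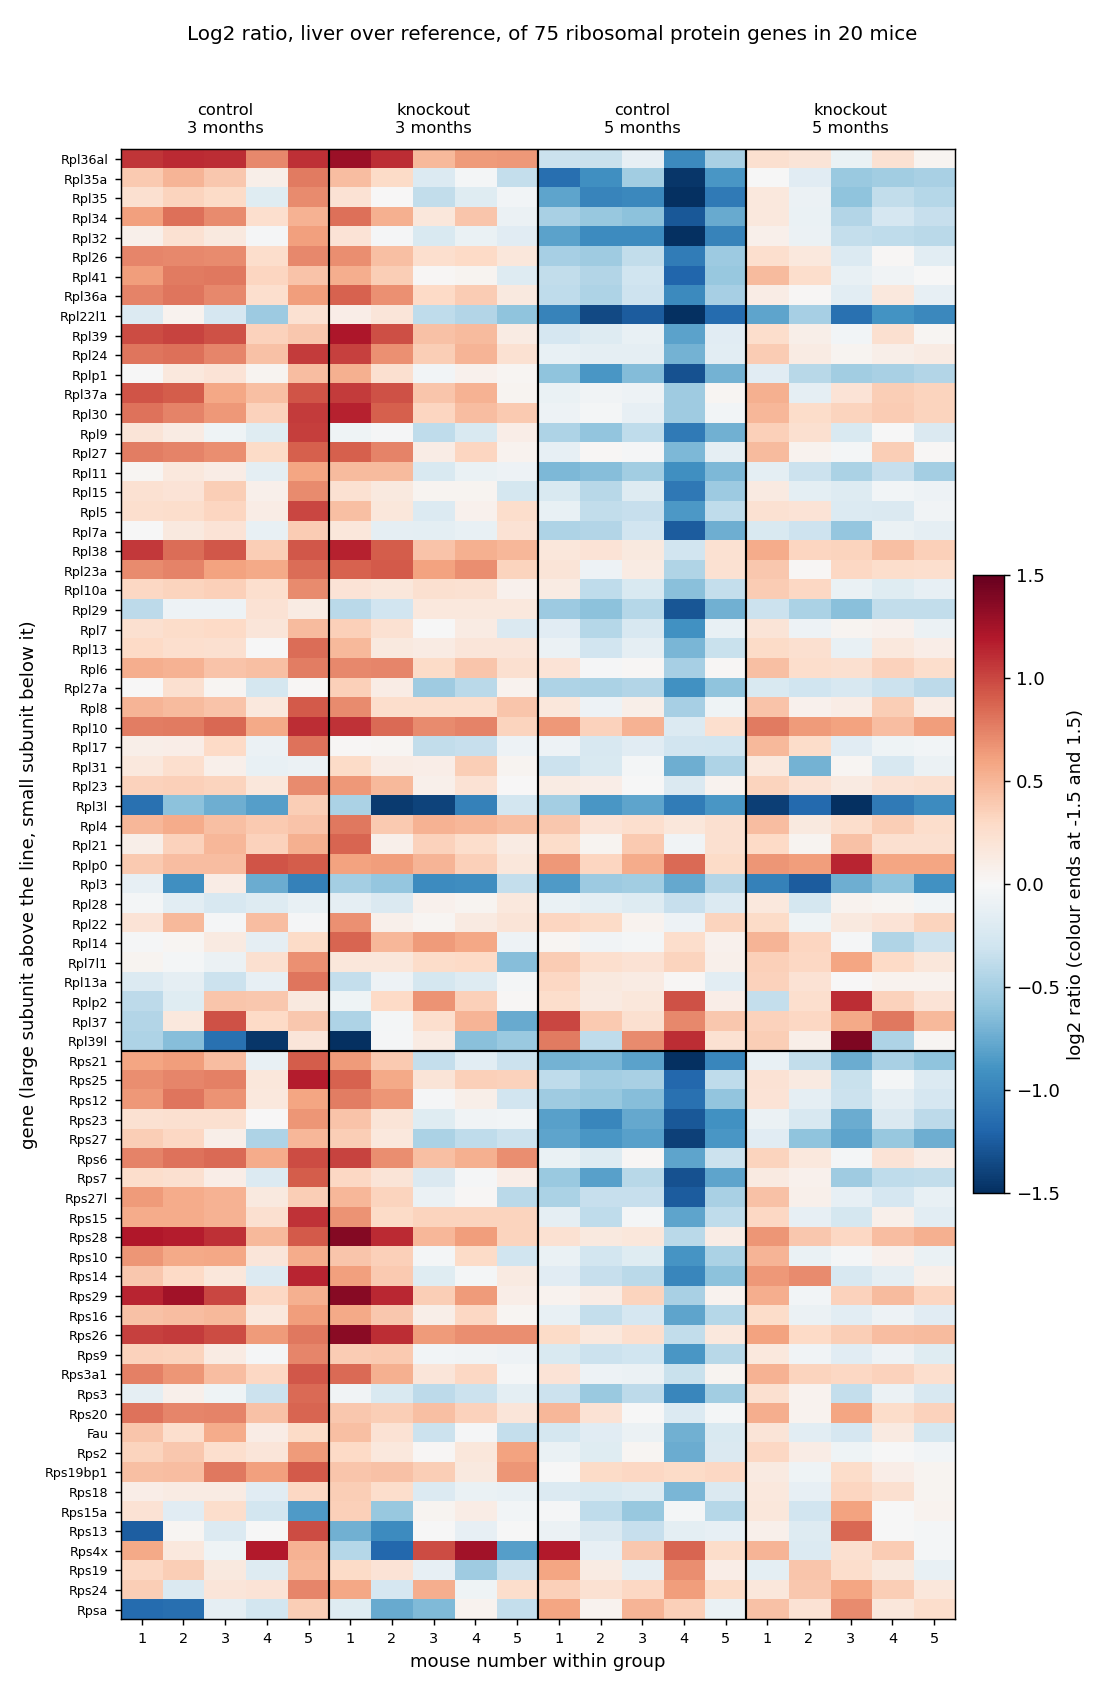
Log2 ratio of liver over reference for each of the 75 genes (rows, large subunit above the line, each block ordered by the age difference in controls) in each of the 20 mice (columns). Most rows run from red at 3 months to blue in controls of 5 months, with mouse 4 darkest, while Rpl3 and Rpl3l stay below the reference in most mice and Rpl39l and Rpsa run the other way.

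The first comparison sets livers labelled as Met knockouts against controls at 5 months. Rpl32, a protein of the large subunit, was higher in knockouts. Its log2 ratios were -0.80, -0.95, -0.94, -1.62 and -1.01 in controls and 0.08, -0.09, -0.35, -0.39 and -0.40 in knockouts. The groups were separate, with control 4 the lowest. The difference was 0.83 ± 0.16 (SE), or 1.78-fold, with an adjusted p = 0.0465 in limma, Benjamini-Hochberg over all probes. That p lies near the threshold of 0.05. With each of the 20 mice left out in turn the call was kept in 4 cases, with adjusted p from 0.0270 to 0.114 and differences from 0.69 (without control 4 of 5 months) to 0.90. It was lost with array medians set to 0 (0.83, adjusted p = 0.0625) and with array series as a covariate (1.05, adjusted p = 0.136). The difference under that covariate was the one within the array series of the 5 controls and knockouts 1 and 2.

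Rpl32 was the only one of the 122 member probes called at 5 months (0.82%, against 0.145% of all probes). The methods' t-test put 2 of the 122 member probes under its threshold of 0.001, against 242 of all 36607 probes. After Benjamini-Hochberg adjustment it put none there. Without a correction for multiple testing, 49 member probes had p under 0.05 and all 49 were higher in knockouts (40.2%, against 7.07% of all probes that were higher at that level). They came from 47 genes, with 30 probes of the large and 19 of the small subunit. In 35 member probes, from 34 genes, all 5 knockouts lay above all 5 controls (28.7%, against 2.59% of all probes), and in none did all 5 lie below (against 1.33%). With any mouse of 5 months left out this number was 35 to 46. The number at p under 0.05 fell to 27 without control 4 and to 31 without knockout 1. Probes of a mouse share its arrays, so these counts are not independent.

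The median difference over the 75 genes was 0.36, against 0.01 over all probes, and 64 genes were higher in knockouts. It was 0.34 for the large and 0.38 for the small subunit. Without control 4 it was 0.26 with 67 genes higher. Within the array series that holds all 5 controls with knockouts 1 and 2, it was 0.44. Knockouts 3 to 5 are in a series of their own, with a mean mouse median of -0.01 against 0.17 in knockouts 1 and 2.

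Other probes with a large difference at 5 months did not pass the adjusted threshold. Rpl35, a protein near the exit of the peptide tunnel, had -0.79, -0.99, -0.97, -1.56 and -1.06 in controls and 0.16, -0.08, -0.61, -0.37 and -0.43 in knockouts. The groups did not overlap, with a difference of 0.81 ± 0.18 (limma adjusted p = 0.0944). Rpl27a had -0.86, -0.84, -0.80, -1.40 and -0.82 against 0.05, -0.12, -0.33, -0.43 and -0.36 on the probe with the largest difference (0.71 ± 0.17, adjusted p = 0.119). These groups were separate too, but the remaining probes of Rpl27a differed by 0.03 and 0.10.

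Rps23, which lies at the decoding centre, had -0.82, -0.98, -0.77, -1.27 and -0.91 in controls and -0.08, -0.24, -0.75, -0.22 and -0.39 in knockouts. Knockout 3 came just above the highest control, and the difference was 0.61 ± 0.16 (adjusted p = 0.148). Rpl26, known also for binding the p53 mRNA, had -0.50, -0.54, -0.37, -1.05 and -0.55 against 0.25, 0.16, -0.20, 0.02 and -0.16. Its groups were separate as well (0.62 ± 0.15, adjusted p = 0.126).

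**Figure D3:**
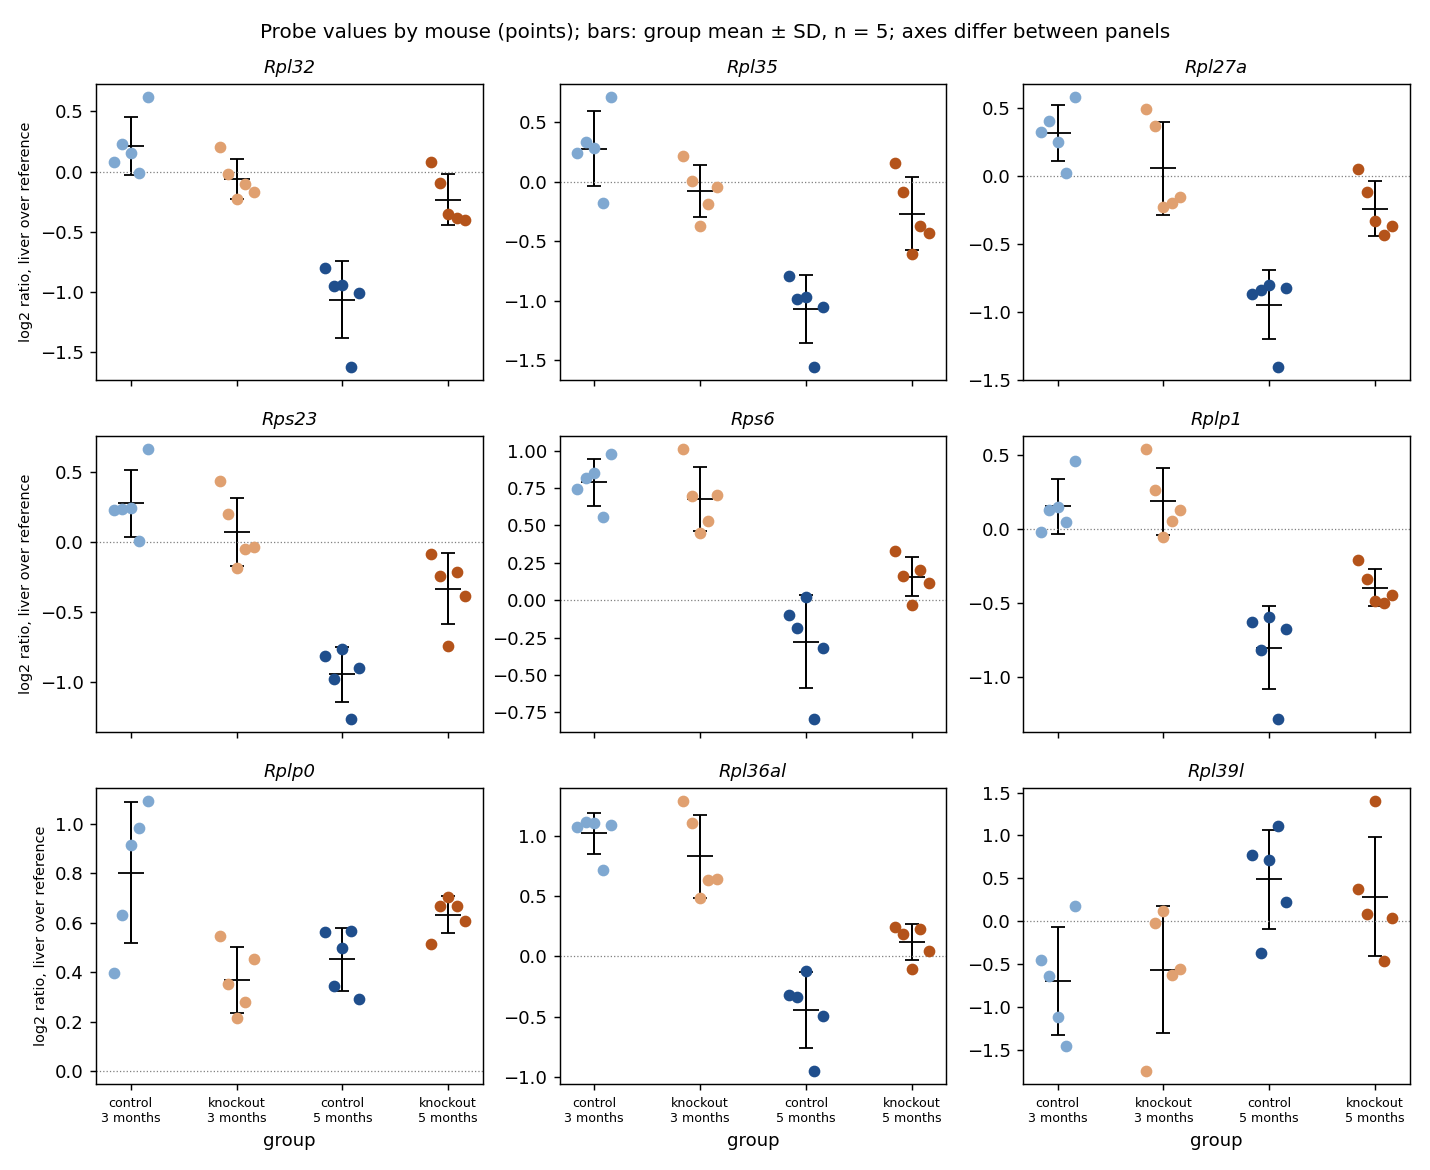
Log2 ratio of liver over reference by mouse for 9 probes, with group mean and SD (n = 5) and an axis of its own in each panel. Rpl32, Rpl35, Rpl27a and Rps23 have knockouts above controls at 5 months without overlap, Rps6 and Rplp1 sit at a lower level at 5 than at 3 months in both genotypes, and Rplp0 and Rpl39l differ from that pattern.

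By role, the proteins of the stalk, which recruits translation factors, had unequal differences. Rplp1 differed by 0.41 ± 0.14 and 0.43 ± 0.15 on its 2 probes (adjusted p = 0.330 and 0.327), with separate groups on both. Rplp0 differed by 0.18 ± 0.13 and 0.20 ± 0.24, and Rplp2 by -0.01 ± 0.24. Rpl5 and Rpl11, which carry the 5S RNA and restrain Mdm2 when assembly fails, differed by 0.41 ± 0.18 and 0.32 ± 0.16, and neither was called.

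Rps6, the substrate of the S6 kinases, had -0.10, -0.19, 0.02, -0.79 and -0.32 in controls and 0.33, 0.16, -0.03, 0.20 and 0.12 in knockouts. Knockout 3 fell between the controls (0.43 ± 0.15, adjusted p = 0.306). Rps14, a protein of the platform of the small subunit, had a larger difference with a larger error, 0.72 ± 0.24 (adjusted p = 0.307). Rps3, near the mRNA entry, differed by 0.51 ± 0.20 and 0.44 ± 0.18, and Rps2 by 0.31 ± 0.15. Rpl10, the last protein to join the large subunit, differed by 0.31 ± 0.16 and Rpl8 by 0.29 ± 0.15. Fau, made as a fusion with a ubiquitin-like protein, differed by 0.22 ± 0.17.

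Several core proteins had differences near 0 or below it. Rpl3, at the peptidyl transferase centre, lay below the reference in all 10 mice of 5 months and differed by -0.28 ± 0.20. Rpl4 differed by -0.03 ± 0.11 and 0.13 ± 0.11, Rpsa by 0.07 ± 0.15 and 0.08 ± 0.52, and Rps19 by -0.20 ± 0.32 and -0.12 ± 0.20. Rps4x differed by -0.34 ± 0.39. The lowest moderated t values at 5 months belonged to Rpl3l (-0.40 ± 0.25), the muscle paralogue of Rpl3, to Rpl3, to 1 probe each of Rpl13a (-0.31 ± 0.24) and Rpl37 (-0.51 ± 0.52), and to Rps19bp1 (-0.14 ± 0.12). None was called.

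Paralogues were set side by side. Rpl36a and Rpl36al, nearly identical proteins, differed by 0.52 ± 0.16 and 0.56 ± 0.17. Rps27 and Rps27l, the second a p53 target, differed by 0.38 ± 0.20 and 0.59 ± 0.19. Rpl22 differed by 0.00 ± 0.15 and its paralogue Rpl22l1 by 0.39 ± 0.18, while Rpl39 differed by 0.42 ± 0.20 and Rpl39l by -0.20 ± 0.39. No member of these pairs was called, and whether the members of a pair differ was not tested. Rps27a had no probe under that symbol alone and is not analysed here. Ribosomal protein genes have many processed pseudogenes, and whether probes also read those copies was not tested.

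At 3 months the genotype difference had the opposite sign. The median over the 75 genes was -0.18, against -0.02 over all probes, and 67 genes were lower in knockouts. It was -0.12 for the large and -0.20 for the small subunit. No member probe was called by limma (0.0355% of all probes were). The methods' t-test put none under 0.001 (63 of all 36607 probes were) or under 0.05 after adjustment. At unadjusted p under 0.05 there were 10 (8.20%, against 7.96% of all probes), 9 of them lower in knockouts (against 5.82%), so their share was near the background. The 9 became 20 without control 4 of 3 months, 19 without knockout 1, 14 without knockout 2 or without control 4 of 5 months, and 4 without control 5 of 3 months. All 5 knockouts lay below all 5 controls in 2 probes (1.64%, against 0.929%), of Rpl10a and Rpl17, and above them in none (against 0.385%).

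The size of the shift differed between parts of the mice. Without control 5 the median was -0.10, with 55 genes lower. In the array series of controls 1 to 3 with knockouts 1 and 2 it was 0.03, with 45 genes higher in knockouts. In the series of controls 4 and 5 with knockouts 3 to 5 it was -0.33, where the mouse medians of the controls were 0.17 and 0.69.

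Rplp0, the base of the stalk, had the largest negative moderated t at 3 months. One probe gave 0.40, 0.63, 0.92, 0.98 and 1.09 in controls and 0.55, 0.35, 0.21, 0.28 and 0.45 in knockouts. Control 1 lay among the knockouts, and the difference was -0.43 ± 0.13 (limma adjusted p = 0.284). The other probe of Rplp0 gave 0.07 ± 0.24. Rps20 had 0.95, 0.67, 0.82, 0.50 and 0.78 against -0.09, -0.08, 0.70, 0.27 and 0.08 on one probe, where knockout 3 lay within the control range (-0.57 ± 0.20, adjusted p = 0.407). Its other probe differed by -0.17 ± 0.16. Rpl17 gave -0.46 ± 0.17 and -0.32 ± 0.19, and probes of Rpl13a gave -0.54 ± 0.19 and -0.43 ± 0.17.

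On the other side at 3 months stood Rpl14 (0.44 ± 0.18, adjusted p = 0.550), with -0.02, 0.03, 0.13, -0.13 and 0.29 in controls and 0.87, 0.49, 0.64, 0.58 and -0.07 in knockouts. Knockout 5 alone lay among the controls. Rpl28 (0.25 ± 0.15), a probe of Rpl13a (0.25 ± 0.26), Rpl31 (0.12 ± 0.16) and Rplp2 (0.18 ± 0.24) followed, none called.

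The genotype difference at 5 months minus that at 3 months was tested in the same fit. No member probe was called (0.0% of all probes were). At unadjusted p under 0.05 there were 51, all with the larger difference at 5 months (41.8%, against 5.61% of all probes). The largest differences were those of Rpl35 (1.16 ± 0.26, limma adjusted p = 0.431), of Rpl41, the smallest ribosomal protein (1.12 ± 0.26, adjusted p = 0.431), and of Rpl32 (1.11 ± 0.23, adjusted p = 0.412). Of the 75 genes, 59 were higher at 5 and lower at 3 months in knockouts (78.7%, against 26.7% of all probes). This number was 48 without control 5 of 3 months and 60 without control 4 of 5 months.

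**Figure D4:**
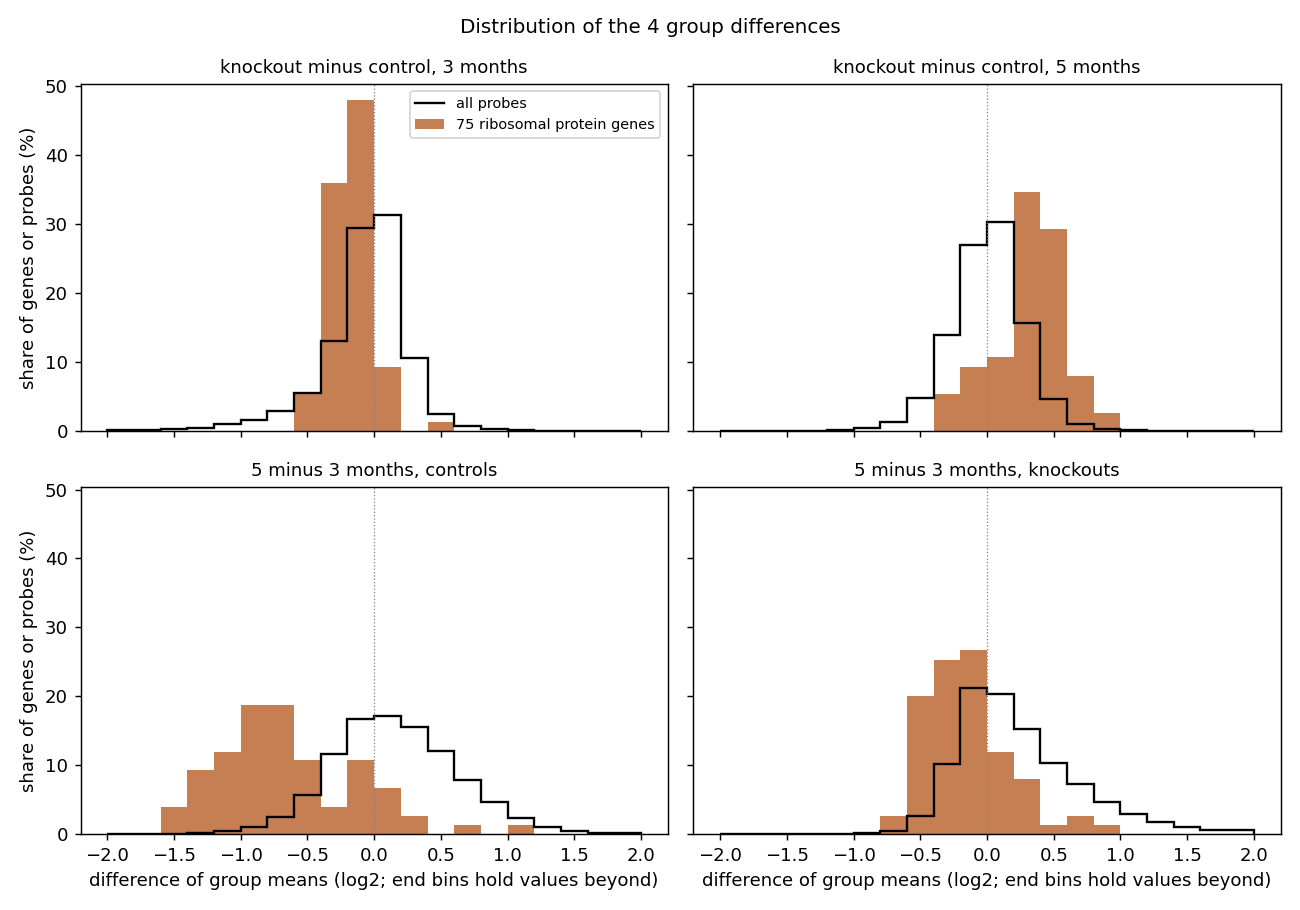
Share of the 75 ribosomal protein genes (bars) and of all 36607 probes (line) by difference of group means on the log2 scale, for both genotype and both age comparisons, in bins of 0.2. The genes sit to the right of all probes for the genotype difference at 5 months (medians 0.36 and 0.01) and far to the left for the age difference in controls (medians -0.69 and 0.13).

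The second comparison is between ages. All arrays of 3 months lie in other array series than those of 5 months, so age and array series cannot be told apart. Between ages, fell and rose are used for probes called lower or higher at 5 months by limma (adjusted p under 0.05). In controls, 64 member probes from 59 genes fell (52.5%, against 7.25% of all probes), 38 of the large and 26 of the small subunit. Only 2 rose (1.64%, against 7.41%). The median over the genes was -0.69, against 0.13 over all probes. In 59 probes all 5 controls of 5 months lay below all 5 of 3 months (48.4%, against 6.03%), and in 1 above (against 6.47%). Leaving out control 4 of 5 months lowered the called probes from 66 to 53 and brought the median to -0.60. Of the 66 calls, 53 were kept whichever mouse was left out.

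Setting each array's median to 0 moved the median of all probes from 0.13 to -0.01 in controls and from 0.14 to -0.03 in knockouts. The member median then moved to -0.84 and -0.36. Calls over all probes in controls moved from 2714 higher and 2655 lower to 1556 and 4747. The split of these calls also differed by dye orientation, with 14695 higher and 2851 lower in liver-in-Cy5 arrays alone and 558 and 5141 in liver-in-Cy3 arrays alone, where the medians of all probes were 0.46 and -0.27. The member median was -0.77 in each.

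The largest fall in controls was that of Rpl36al, from 1.08, 1.12, 1.11, 0.72 and 1.09 to -0.33, -0.34, -0.12, -0.95 and -0.49. The ages were far apart, by -1.47 ± 0.17 or 2.77-fold (adjusted p = 0.000204). In knockouts Rpl36al fell from 1.29, 1.11, 0.48, 0.64 and 0.65 to 0.24, 0.19, -0.10, 0.22 and 0.04, also without overlap (-0.71 ± 0.17, adjusted p = 0.0265).

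Rps21 (-1.43 ± 0.22), Rpl35a (-1.42 ± 0.19), Rpl35 (-1.35 ± 0.18) and Rpl34 (-1.32 ± 0.18) followed in controls. Rps25 (-1.30 ± 0.19), Rpl32 (-1.28 ± 0.16), Rpl27a (-1.26 ± 0.17), Rps12 (-1.26 ± 0.19) and Rpl26 (-1.23 ± 0.15) completed the 10 largest. Adjusted p ran from 0.000204 to 0.000953, and in all 10 the ages did not overlap. In knockouts these probes differed by -0.17 (Rpl32) to -0.71 (Rpl36al), and of the 10 only Rpl36al was called there. The 10 were picked for their size in controls, which by itself favours smaller differences in knockouts. Rpl35a, for which the start region is shown above, went from 0.40, 0.50, 0.40, 0.09 and 0.78 to -1.13, -0.92, -0.53, -1.45 and -0.87 in controls. In knockouts it went from 0.47, 0.28, -0.20, -0.04 and -0.36 to 0.00, -0.17, -0.56, -0.52 and -0.49, where the ages overlapped.

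In knockouts 5 member probes from 4 genes fell (4.10%, against 0.743% of all probes) and 1 rose (0.82%, against 3.99%). The median over the genes was -0.19, against 0.14 over all probes. These were Rpl36al, both probes of Rplp1 (-0.58 ± 0.14 and -0.56 ± 0.15, adjusted p = 0.0322 and 0.0449), Rpl22l1 (-0.63 ± 0.18, adjusted p = 0.0469) and Rps6 (-0.52 ± 0.15, adjusted p = 0.0476). The count of 6 was 0 without knockout 1 or 2 of 3 months or knockout 3 or 5 of 5 months, and 10 without control 5 or knockout 3 of 3 months. It was 1 without knockout 4 of 5 months, 2 without control 2, 3 or 5 of 5 months, and 3 without control 1 or knockout 1 of 5 months or knockout 4 of 3 months. Without knockout 3 of 5 months the adjusted p of these 6 probes was 0.0703 to 0.129. In 5 probes all knockouts of 5 months lay below all of 3 months (4.10%, against 2.04%) and in 5 above (4.10%, against 4.85%).

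Rps6 in knockouts went from 1.01, 0.70, 0.45, 0.53 and 0.70 to 0.33, 0.16, -0.03, 0.20 and 0.12, without overlap. In controls it went from 0.74, 0.81, 0.85, 0.55 and 0.98 to the values given above (-1.07 ± 0.15, adjusted p = 0.000485). Rplp1 fell in controls by 0.95 ± 0.14 and 1.04 ± 0.15, and Rpl22l1 by 1.11 ± 0.18.

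Of the 75 genes, 67 had a more negative age difference in controls than in knockouts (89.3%, against 57.4% of all probes). That count is the genotype by age contrast again and no separate support. It was 67 without control 4 of 5 months or control 5 of 3 months.

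Only 3 member probes were called higher at 5 than at 3 months in either genotype. By group means, 9 of the 75 genes were higher at 5 months in controls and 19 in knockouts. Rpl39l, the testis paralogue of Rpl39, went in controls from -0.46, -0.64, -1.12, -1.46 and 0.18 to 0.78, -0.38, 0.71, 1.11 and 0.23. The ages overlapped, and the rise was 1.19 ± 0.39 (adjusted p = 0.0461), against 0.85 ± 0.39 in knockouts (adjusted p = 0.176). Its call in controls was kept in 7 of 20 cases with 1 mouse left out, and adjusted p was highest at 0.131 without control 4 of 5 months. Rpl39 itself fell in controls by 1.04 ± 0.20 (adjusted p = 0.00330). A probe of Rpl28 rose in controls by 0.47 ± 0.15 (adjusted p = 0.0386, kept in 12 of 20), whereas its other probe fell by 0.57 ± 0.13 (adjusted p = 0.00920). The riser in knockouts was 1 of 3 probes of Rpl37 (1.64 ± 0.47, adjusted p = 0.0496, kept in 5 of 20), with values from -2.43 to 0.36 at 3 months and from -0.40 to 2.00 at 5 months, so the ages overlapped.

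**Figure D5:**
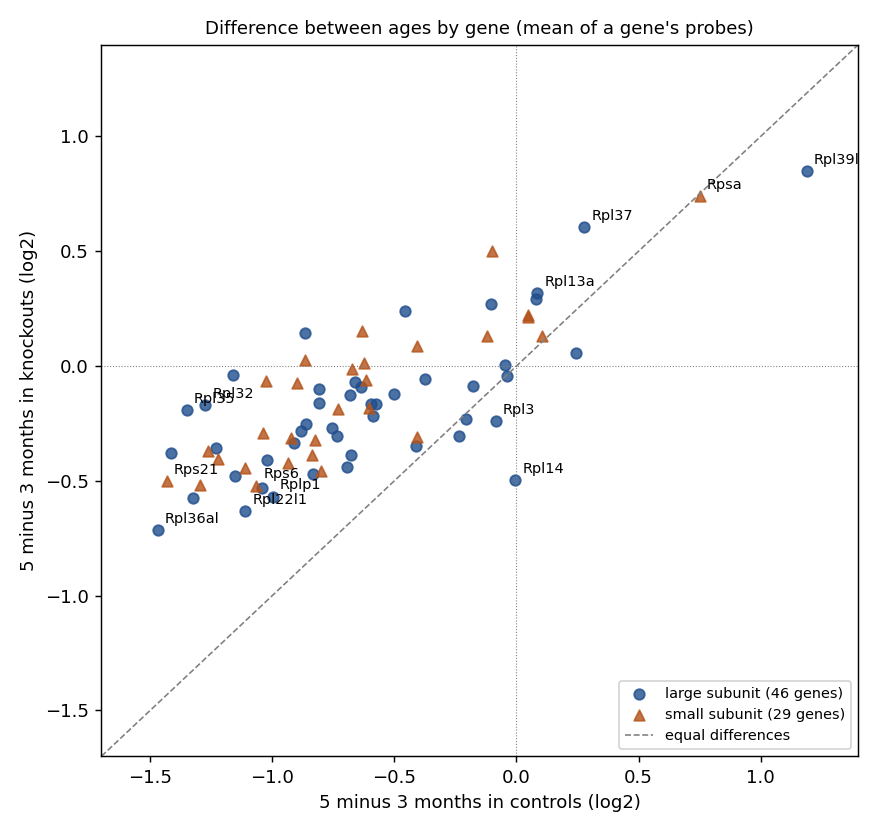
Difference between 5 and 3 months for each gene (mean of its probes, log2) in controls (horizontal) and knockouts (vertical), for both subunits. Most genes lie above the dashed line of equal differences, with a fall of up to 1.47 in controls and 0.71 in knockouts for Rpl36al. Rpl39l and Rpsa lie at the upper right, where the 2 probes of Rpsa differ by -0.03 and 1.53 in controls.

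Probes of the same gene did not always move alike. Among the 19 genes with 2 or 3 probes, the range across probes had a median of 0.76 for the age difference in controls, 0.24 for the genotype difference at 5 months and 0.14 at 3 months. Signs differed between probes in 8, 5 and 8 of the 19. Rps13 gave -1.05 ± 0.18 (called) and 0.85 ± 0.65 in controls, and Rpsa -0.03 ± 0.15 and 1.53 ± 0.52 (adjusted p = 0.0555). The probes of Rplp1, Rps3 and Rps9 lay closer in that comparison, with ranges of 0.09, 0.07 and 0.15.

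Rpl13a, also a silencer of inflammatory mRNAs outside the ribosome, had none of its 23 probes called by limma in any comparison. At unadjusted p under 0.05 there were 2 at 3 months (against 7.96% of all probes), 0 at 5 months (against 10.5%) and 2 for genotype by age (against 7.74%). Between ages there were 0 in controls (against 32.4%) and 5 in knockouts (against 25.7%). Its probes differed by -0.19 to 0.28 between ages in controls (median 0.10) and by -0.31 to 0.31 between genotypes at 5 months (median 0.04). Between ages in knockouts all 23 were higher at 5 months, by 0.01 to 0.65 (median 0.29, lowest limma adjusted p = 0.0563). The median over the 75 genes there was -0.19. Between genotypes at 3 months 20 of the 23 were lower in knockouts (median -0.21). Within a mouse the SD across its probes was 0.14 to 0.41. In control 5 of 3 months their median was 0.93, against -0.36 to -0.09 in the other controls of that age. Without Rpl13a, 34 of 99 member probes were separate at 5 months (34.3%) and 64 fell in controls (64.6%). The signal behind a ratio is not in the values, so its probes could not be checked against background.

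Lists of other genes of the translation machinery give the setting. Of 47 genes for RNA polymerase I and ribosome assembly, 45 were measured. Their median difference was 0.03 between genotypes at 5 months (27 of 45 higher) and -0.13 between ages in controls. In that age comparison 11 genes fell (13 of 69 probes, against 7.25% of all probes). Among them were Npm1 (-0.54 ± 0.13 and -0.57 ± 0.15), which escorts subunits out of the nucleolus, and Nop10 (-0.85 ± 0.16), a subunit of the pseudouridylation complex. Sbds, which frees the large subunit for joining, had the largest moderated t at 5 months (0.52 ± 0.12, adjusted p = 0.109).

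Of 43 initiation and elongation factors 39 were measured, with a median of 0.13 between genotypes at 5 months (35 of 39 higher). Between ages in controls their median was -0.30, and 17 genes fell (21 of 94 probes, against 7.25% of all probes). These included Eif3a (-0.96 ± 0.13 and -0.77 ± 0.17), the scaffold of initiation factor 3, and Eef1b2 (-0.87 ± 0.20), an exchange factor for elongation. In knockouts Eif3a (-0.53 ± 0.13) and Eif5b (-0.38 ± 0.11) fell, and 1 probe of Eif3m rose. These were 2 and 1 of 94 probes, against 0.743% and 3.99% of all probes. Of 8 ribosome partners and ubiquitin fusions 4 were measured, with medians of 0.26 between genotypes at 5 months and -0.47 between ages in controls. Naca, a chaperone of nascent chains, fell in controls (-0.85 ± 0.15 and -0.74 ± 0.16), as did Btf3 and Serbp1. Together these were 4 of the 7 probes of that list, against 7.25% of all probes.

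Regulators of ribosomal protein mRNA were mixed, with 21 of 24 measured and medians of 0.03 between genotypes at 5 months and 0.08 between ages in controls. Between ages in controls Myc (1.13 ± 0.33), Mxi1, Mlst8 and Rps6ka3 rose, and Tsc1 (-0.58 ± 0.11) and Max fell. With 4 and 2 of 40 probes, against 7.41% and 7.25% of all probes, both shares were near the background. In knockouts Myc (1.29 ± 0.33), Rictor (1.26 ± 0.24) and Eif4ebp1 (1.37 ± 0.38) rose (3 of 40 probes, against 3.99% of all probes). None of the 4 lists had a gene called by limma between genotypes at either age. At unadjusted p under 0.05 at 5 months, 10 of 69 probes for assembly (14.5%), 14 of 94 for the factors (14.9%) and 3 of 7 for the partners (42.9%) were higher in knockouts, against 7.07% of all probes. For the regulators it was 3 of 40 (7.50%), near that background. In the 4 lists 1 probe was lower at that level, for assembly. The methods' t-test at 5 months put 1 of the 40 probes of the regulators under 0.001 (against 242 of all 36607 probes) and none after adjustment. The mitochondrial ribosomal proteins, a comparison set of 77 genes chosen after values had been seen, had medians of 0.14 between genotypes at 5 months and -0.38 between ages in controls, beside 0.36 and -0.69 for the cytosolic set.

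Markers of liver cell types moved with these genes in part. Mean values over the 10 hepatocyte markers, among them Alb and Ttr, ran from 0.16 to 0.27 by mouse in controls of 3 months and from -0.57 to 0.20 in controls of 5 months, against -0.04 to 0.23 in knockouts of 5 months. All 10 were lower at 5 than at 3 months in controls, with a median of -0.35. Of these Ass1, Cps1 and Ttr fell (4 of 12 probes, against 7.25% of all probes). Kupffer cell and macrophage markers (9 of 12 measured) ran from -0.42 to 0.06 in controls of 5 months and from -0.04 to 0.36 in knockouts, and 8 of 9 were higher in knockouts. Endothelial markers (8 of 8) ran from -0.31 to -0.16 and from -0.10 to 0.10, without overlap, and 7 of 8 were higher. Of hepatocyte markers 9 of 10 were higher in knockouts. In these 3 lists limma called none between genotypes at 5 months, with 5 of 12 (41.7%), 7 of 14 (50.0%) and 6 of 12 probes (50.0%) higher at unadjusted p under 0.05 for hepatocyte, Kupffer and endothelial markers, against 7.07% of all probes. The remaining 6 marker lists had medians from -0.12 to 0.18 in that comparison. Between ages in controls, all 9 Kupffer markers were lower at 5 months (median -0.33). Of these Adgre1, Clec4f and Lyz2 fell (3 of 14 probes, against 7.25% of all probes). Of endothelial markers 7 of 8 were lower (median -0.18), and Fcgr2b and Kdr fell (2 of 12 probes, against 7.25%). Of proliferating-cell genes 8 of 9 were higher (median 0.44), but no probe of that list was called higher by limma. At unadjusted p under 0.05, 4 of its 13 probes were higher (30.8%, against 19.5% of all probes). Its Pcna probe that fell was 1 of 13 (against 7.25%). The other 5 lists had medians from -0.44 (erythroid) to 0.32 (neutrophil) in that comparison. The part of these cell types in the ribosomal protein differences was not tested. Against a liver reference a ratio near 0 does not show how abundant a marker is.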

How the data were processed

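Values were taken from the deposited table of log2 ratios, 1 per probe and array. Per the series' design text, features marked invalid were dropped by the authors in mAdb, where arrays were normalised to their 50th percentile. The base of 2 was read from the values. Centring was kept as deposited, with array medians that are not 0. For background handling and the numerator of the log2 ratios the sources used here give nothing. Ratios with liver in Cy3 were turned, a dye effect per probe, estimated in the 18 mice hybridised both ways, was taken off, and each mouse became the mean of its arrays. Array signals are not in the table. The 38 arrays give 1 value per mouse, so the number of mice (5 a group) limits precision.

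Groups were compared with limma 3.58.1 (R 4.3.3), with 4 group means, 1 spread over 20 mice and Benjamini-Hochberg adjustment over all 36607 probes at 0.05, tested on simulated data. Tables were made with pandas 2.3.3. Probes named were those called (the 10 largest where over 15 were), the 5 highest and 5 lowest moderated t for each genotype comparison, proteins listed by role, all probes of those genes, and from each pathway list those called or the 2 largest t. Genes were named from the platform annotation, and 26926 probes have 1 symbol, 203 several and 9478 none listed. By Entrez ID 74 of 75 members matched RefSeq, and Rpl5 did not. The members and lists were chosen with earlier results of these data known. Left out were 3 probes whose several symbols include a ribosomal protein. Nothing says whether mice shared litters, so p-values measure the spread between these mice. Alternatives covered centring, array series, dye orientation, each mouse left out, the mouse number as a block and the methods' t-test without its random variance model.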

Additional observations from a re-analysis of the deposited data

Results flagged for a closer look

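For 56 measures (the gene medians and the probes named in the report), each group of 5 mice was tested for a mouse far from the others, by its gap to the nearest mouse over the range of the group against Dixon's critical value of 0.71. Of 224 groups, 20 held such a mouse, and chance gives about 1 in 20 groups. The measures share mice and arrays, so the 20 are not independent and that rate does not test their number. Control 4 of 5 months accounted for 10 of them. It was low for Rpl32 (-1.62), Rps25 (-1.18), Rpl27a (-1.40), Rps12 (-1.11), Rpl26 (-1.05), Fau (-0.72), Rps27 (-1.40), Rps27l (-1.25) and Rpl39 (-0.80), and high for Rplp2 (0.96). Control 5 of 3 months was high for Rpl5 (1.005) and for a pair of Rpl13a probes (1.03 and 0.73), and control 4 of 3 months was low for Rpl36al (0.72) and Rpl26 (0.26). Knockout 1 of 5 months was high for the median of the ribosomal protein genes (0.28) and for 1 probe of Rplp1 (-0.12). Knockout 1 of 3 months was high for Rpl22 (0.68), knockout 3 of 5 months for 1 probe of Rplp0 (1.58) and control 1 of 5 months for Rps19bp1 (-0.0005). What set these livers apart was not tested.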

How the results depend on the processing

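The median difference of ribosomal protein genes between genotypes kept its sign at 5 months under every alternative (0.26 to 0.54), and at 3 months under all but the array series of controls 1 to 3 (0.0276). In controls the age difference of that median was -1.03 under quantile normalisation. Same-numbered mice showed weak correlations of their deviations from the group means (-0.07 to 0.11 at 3 and -0.18 to 0.17 at 5 months). Mice of different numbers were not compared, so a pairing is not excluded. With the replicate number as a block, calls over all probes were 3 at 3 months and 16 at 5 months (13 and 53 without it), and no member was called at 5 months.

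Calls over all probes at 3 months were 1 under quantile normalisation. They were also 1 without the Cy5 array of control 4 of 5 months, a mouse that shares the fit and its spread. They were 27 with array series as a covariate, 23 in mice with both orientations and 2 with either orientation alone. Within either series or with mice of 3 months alone they were 0. At 5 months they were 29 with array medians at 0, 766 under quantile normalisation, 0 with the series covariate or liver in Cy3, 2 within 1 series or with liver in Cy5, 4 with mice of 5 months alone and 21 with both orientations. The methods' t-test gave 63 and 242 at 0.001 and 0 and 0 after adjustment. Member calls at 5 months were 15 under quantile normalisation, 2 by the t-test, and 0 in all these other settings except without the Cy5 array of control 4, where Rpl32 was kept (0.0302).

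Between ages, calls over all probes in controls (5369) were 8266 under quantile normalisation, 8067 with the series covariate, 3277 without that Cy5 array and 17546 with liver in Cy5. No series holds both ages, so the series covariate cannot take array series out of the age difference. In knockouts (1732) they were 10207 with liver in Cy5, 5 with liver in Cy3 and 13 with both orientations, and member calls (6) were 18 with array medians at 0, 13 under quantile normalisation, 16 in Cy5, and 0 in Cy3 or with both orientations. With array medians at 0 the split in knockouts went from 1460 higher and 272 lower to 796 and 1292. The mean of mouse medians in controls of 5 months was -0.53 under quantile normalisation, and large minus small in knockouts of 5 months was -0.0509 with means over genes. Leaving out 1 mouse gave 0 to 26 calls at 3 months, 10 to 100 at 5 months, 0 to 1 for genotype by age, 2351 to 6595 between ages in controls and 388 to 3177 in knockouts, and member calls of 0 to 1 at 5 months and 0 to 10 between ages in knockouts. The causes were not tested.

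Of the differences that changed sign, none was called. At 3 months these were Rpl31 (-0.0238 in Cy3), Rpl28 (-0.0383 within 1 series, -0.11 in Cy5) and Rpl13a (-0.0075 to 0.40 leaving out a mouse). At 5 months in Cy3 they were Rps19bp1 (0.0037), Rpl37 (0.12), Rps19 (0.0154), Rpsa (-0.0179) and Rps4x (0.13). In Cy5 they were Rpl4 (0.0432), Rpl22 (0.0817) and Rpsa (-0.48), with 0.0483, 0.0885 and -0.13 in mice with both orientations. Quantile normalisation turned Rplp2 (0.0614) and Rpsa (-0.0864), the series covariate Rpsa (-0.0177, also within 1 series), and omission of the Cy5 array Rplp2 (0.0333) and Rps19 (0.0194). Leaving out a mouse gave -0.21 to 0.16 for Rplp2, -0.0796 to 0.0221 for Rpl4, -0.44 to 0.007 for Rps19, -0.0576 to 0.15 and -0.14 to 0.24 for Rpsa, and -0.0695 to 0.0576 for Rpl22. The deposited ratios hold no signal over background, so dim probes could not be left out, and the genotype by age contrast was not run on mice of 1 age.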
